A study of Mus musculus with 3 samples.

Results

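The genes described here are 10 members of the circadian clock, Arntl, Clock, Npas2, Nfil3, Per1, Per2, Per3, Nr1d1, Dbp and Ciart, out of 19532 named genes on a 2-colour oligonucleotide array hybridized with mouse heart RNA. They were chosen by name, with earlier results of these data known. A probe was taken when the array's annotation gave it exactly 1 of these genes. In all, 17 probes met this rule, and none needed an older symbol. Hearts of C57BL/6 mice that received esmolol, infused at 20 mg/kg/h through a central vein, were compared with hearts of mice that did not. Esmolol blocks the cardiac beta-1 adrenergic receptor and is cleared within minutes. The non-septic contrast set esmolol hearts against untreated control hearts. The LPS contrast set hearts of mice given lipopolysaccharide into the peritoneum and esmolol against hearts of mice given lipopolysaccharide alone. The CLP contrast paired hearts after cecal ligature and perforation, a surgical model of abdominal sepsis, with and without esmolol. The design names 6 groups of 8 animals and samples of 30 mg of heart. The sources used here do not give the chamber sampled, the animals' age and sex, the hours of infusion, or the time of day and light schedule at which hearts were taken.

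Each contrast is 1 merged value per probe, made by the authors from 4 replicates with dye swaps. There is therefore no spread between replicates, no test and no p-value for any gene, and the sources used here do not say whether the replicates were separate animals or pooled RNA. The values are read as log2 ratios, which is an assumption, since nothing names the base of the logarithm. A value above 0 means higher with esmolol. For CLP the title names the untreated hearts first, so the deposited sign was turned, whereas the design text speaks of treated against untreated hearts throughout; the direction of every CLP value below rests on the title and is not settled. A gene's value is the median of its probes. The SD between probes of 1 gene, pooled over genes, was 0.11 in non-septic, 0.24 in LPS and 0.10 in CLP hearts. It is the yardstick used here, and it covers neither animals nor hybridizations. The contrasts held 35261, 34933 and 33501 measured probes of 41174. A single exact value recurred at 359, 526 and 538 probes, many of them for abundant heart transcripts, and no member probe carried it.

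The molecular clock is a transcriptional feedback loop that runs in nearly every cell, the cardiomyocyte included. BMAL1 (encoded by Arntl) pairs with CLOCK or its paralogue NPAS2 and activates genes that carry E-box elements, among them the period genes, Nr1d1, Dbp and Ciart. The period proteins, together with the cryptochromes, and the Ciart product CHRONO then hold back the BMAL1 complex, while the nuclear receptor REV-ERB alpha (Nr1d1) represses Arntl and Nfil3 through ROR response elements (ROREs). DBP activates and NFIL3 represses genes with D-box elements, so that output genes cycle through the day, and the activator Arntl and the period genes peak at nearly opposite phases.

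Reference promoters of the members are shown first, since E-boxes, D-boxes and ROREs are the elements through which the clock proteins act. The division of the members into activators, E-box targets and a RORE target is background knowledge and was not made from this search. RefSeq windows of 300 bases (250 before to 50 after an annotated start, build GRCm38.p6) were found for 9 of the 10 members, in 13 entries. Each was searched on both strands for the E-box CACGTG, its variant CACGTT, the D-box spelled TTATGTAA or TTACGTAA, the RORE core spelled TAGGTCA or TGGGTCA and the cAMP response element TGACGTCA. Other spellings of these elements were not searched for, so the lack of a match does not mean that an element is absent. No matches of different elements overlapped in the windows printed. The 6 windows with a match follow, 5′ to 3′ on the gene's strand, with every match in capitals.
Ciart: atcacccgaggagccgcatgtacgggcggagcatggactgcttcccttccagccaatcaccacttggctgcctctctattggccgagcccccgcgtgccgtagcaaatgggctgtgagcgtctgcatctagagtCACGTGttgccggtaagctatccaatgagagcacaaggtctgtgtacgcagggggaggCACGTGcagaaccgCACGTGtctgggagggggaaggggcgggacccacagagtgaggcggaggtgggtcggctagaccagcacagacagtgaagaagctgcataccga
Per1: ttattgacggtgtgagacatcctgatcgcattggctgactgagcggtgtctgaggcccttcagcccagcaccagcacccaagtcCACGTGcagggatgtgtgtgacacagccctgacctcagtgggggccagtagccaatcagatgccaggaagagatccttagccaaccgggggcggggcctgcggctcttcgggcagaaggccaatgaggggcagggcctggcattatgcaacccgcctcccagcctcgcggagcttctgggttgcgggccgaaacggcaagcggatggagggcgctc
Nr1d1: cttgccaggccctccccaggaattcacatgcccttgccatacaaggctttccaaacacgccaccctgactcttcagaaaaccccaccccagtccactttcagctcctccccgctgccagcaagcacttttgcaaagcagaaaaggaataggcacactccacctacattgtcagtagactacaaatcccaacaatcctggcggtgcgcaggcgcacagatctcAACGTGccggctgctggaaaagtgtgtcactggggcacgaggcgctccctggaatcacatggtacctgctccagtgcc
Per3: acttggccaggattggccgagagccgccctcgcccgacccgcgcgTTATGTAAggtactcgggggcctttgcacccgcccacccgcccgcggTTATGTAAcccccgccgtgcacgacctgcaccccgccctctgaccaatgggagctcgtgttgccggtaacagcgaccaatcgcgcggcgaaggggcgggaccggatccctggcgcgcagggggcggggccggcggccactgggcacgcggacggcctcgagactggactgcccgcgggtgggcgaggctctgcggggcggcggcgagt
Nfil3: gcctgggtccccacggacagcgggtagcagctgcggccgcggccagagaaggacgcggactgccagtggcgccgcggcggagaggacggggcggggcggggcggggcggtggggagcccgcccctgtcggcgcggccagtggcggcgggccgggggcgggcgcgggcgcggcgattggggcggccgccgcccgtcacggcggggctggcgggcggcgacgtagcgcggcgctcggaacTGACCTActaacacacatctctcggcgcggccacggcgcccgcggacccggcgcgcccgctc
Arntl: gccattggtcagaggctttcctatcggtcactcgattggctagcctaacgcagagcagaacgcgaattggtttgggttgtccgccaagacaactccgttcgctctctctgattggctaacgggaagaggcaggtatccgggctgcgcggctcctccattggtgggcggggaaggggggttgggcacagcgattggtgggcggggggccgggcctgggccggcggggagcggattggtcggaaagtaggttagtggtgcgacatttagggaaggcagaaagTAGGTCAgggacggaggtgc

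The Ciart window (chr3:95882179-95882478, minus strand) held 3 copies of the E-box CACGTG, 116, 58 and 44 bases before the start. The Per1 window (chr11:69098699-69098998, plus strand) held 1 copy, 166 bases before the start. CACGTG occurs in 7.15% of the 32851 windows of this length. The Nr1d1 window (chr11:98775328-98775627, minus strand) held the variant, read as AACGTG on the printed strand, a motif found in 4.68% of windows. The Per3 window (chr4:151044616-151044915, minus strand) held 2 D-boxes of the spelling TTATGTAA, 205 and 158 bases before the start, where 1.06% of windows held either spelling. ROREs were found in the windows of Nfil3 (chr13:52980990-52981289, minus strand), read as TGACCTA on the printed strand, and of the second of 2 Arntl entries (chr7:113207261-113207560, plus strand), starting at base 31 of the transcript; 6.45% of windows held one. No match was found in the windows of Dbp, Clock and Npas2, in the other Arntl entry or in the other Per1 entry, and the cAMP response element was found in no member's window (1.79% of all windows). A match is a run of letters and not evidence of binding.

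In hearts without sepsis, 5 of 6 E-box targets had ratios above 0 with esmolol, where 50.5% of all measured genes did. The activators Arntl and Clock lay below 0, and the third, Npas2, lay near 0 at 0.01. By gene median, 4 of 10 members were past 1.5-fold (0.585 on the log2 scale), all of them E-box targets and all higher with esmolol. Each of these 4 was read by 1 probe. The share of all 17814 measured genes past 1.5-fold was 0.460%, and 0.219% were past it on the higher and 0.241% on the lower side. Since the members were chosen with earlier results of these data known, this count and those of the other contrasts are descriptions and were not tested. The median of the E-box targets was 0.60 and that of the activators -0.27, a difference of 0.87.

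**Figure D1:**
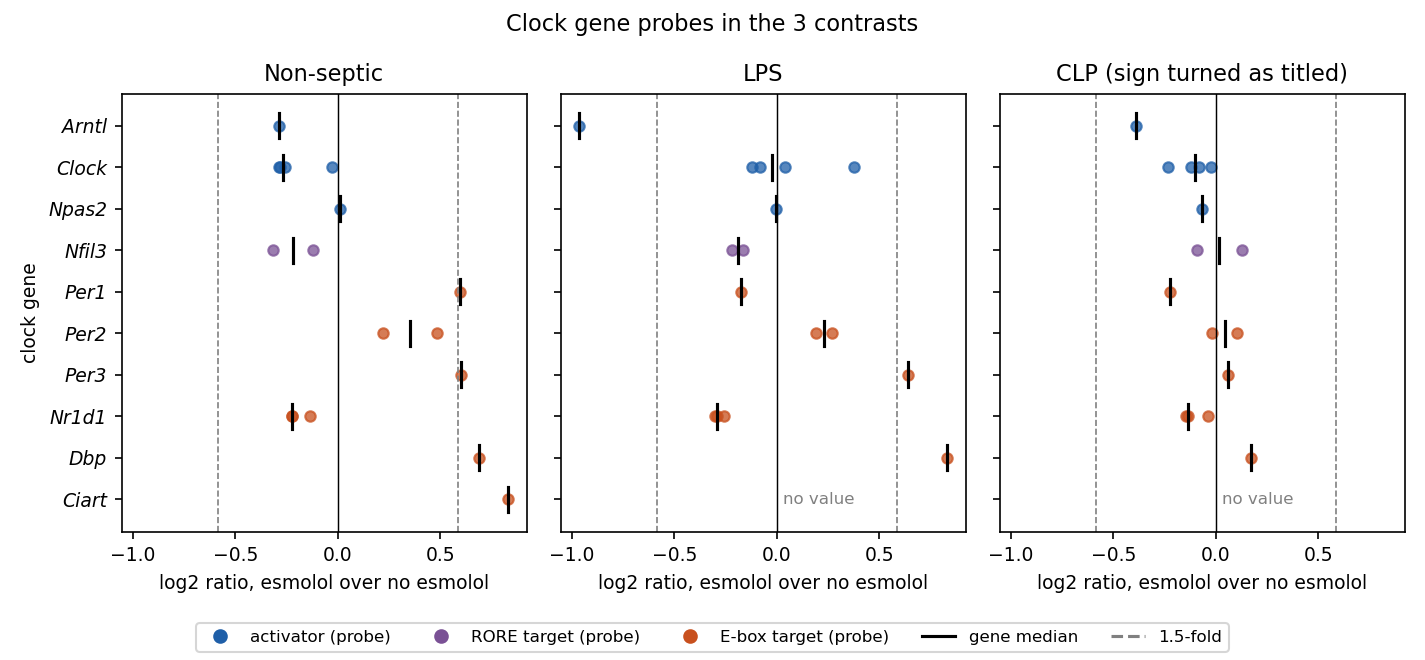
Log2 ratio of each of the 17 member probes (points) and the median of each gene (black bars) in the 3 contrasts, with dashed lines at 1.5-fold. Ciart, Dbp, Per3 and Per1 lie past the line at the right in non-septic hearts, Dbp and Per3 do so in LPS hearts with Arntl past the line at the left, and no gene passes either line in CLP hearts.

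Among the activators, Arntl had 1 probe (A_52_P267651), and it read -0.29 in non-septic hearts, -0.96 in LPS hearts and -0.39 in CLP hearts. It was thus the lowest of the measured members in every contrast, and in LPS hearts it was 1.95-fold lower, the only member past 1.5-fold on the lower side. Of all measured genes, 2.46% had a lower ratio in non-septic, 0.462% in LPS and 0.652% in CLP hearts, where the share would be 99.3% with the deposited sign. The distance between the LPS value and the non-septic value was -0.68, and the pooled probe SDs of these contrasts combine to 0.26. The difference was not tested, since no replicate values were at hand.

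Clock, which encodes the partner of BMAL1, was read by 4 probes that did not move alike. In non-septic hearts they read -0.29, -0.28, -0.26 and -0.03, and the gene median was -0.27 ± 0.12 (SD between probes, n = 4 probes). The probe near 0 (A_52_P279391) carries the accession of a cDNA clone, AK030352, and the other 3 carry the reference transcript NM_007715. In LPS hearts the clone probe read 0.38 and the other 3 read -0.12, -0.09 and 0.04, so the gene median of -0.02 ± 0.23 (n = 4 probes) joins probes on both sides of 0. In CLP hearts all 4 lay below 0, between -0.24 and -0.02, with a median of -0.10 ± 0.09.

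Npas2, the paralogue that can take the place of CLOCK, read 0.01 in non-septic, -0.01 in LPS and -0.07 in CLP hearts at its 1 probe. Each of these is smaller than the pooled SD between probes of its contrast. Of the 3 activators, then, Arntl alone lay beyond that SD in all 3 contrasts, and Npas2 lay beyond it in none. Clock was beyond it in the non-septic contrast and at it in the CLP contrast (1.00 times the SD). A value at that SD is not rare: in CLP hearts 30.2% of all measured genes lay at least as far from 0 as Clock. This share was 4.97% for Clock in non-septic hearts. For Arntl it was 4.33% in non-septic, 0.665% in LPS and 2.55% in CLP hearts.

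Nfil3, the D-box repressor and a RORE-bearing gene like Arntl, had 2 probes. They read -0.32 and -0.12 in non-septic hearts and -0.22 and -0.16 in LPS hearts, below 0 in each case. In CLP hearts they read -0.09 and 0.13, on opposite sides of 0, and their median was 0.02 ± 0.16 (SD between probes, n = 2 probes). No Nfil3 probe reached 1.5-fold in any contrast.

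The period genes encode the repressors that close the loop, and their 3 members had different courses across the contrasts. Per3 read 0.60 in non-septic hearts, 0.64 in LPS hearts and 0.06 in CLP hearts at its 1 probe. It was 1.52-fold higher in the non-septic and 1.56-fold higher in the LPS contrast, just past the threshold in both. Per2 had 2 probes, at 0.49 and 0.22 in non-septic hearts, 0.27 and 0.19 in LPS hearts, and 0.10 and -0.02 in CLP hearts. Its medians of 0.35, 0.23 and 0.04 stayed under 1.5-fold throughout, and in CLP hearts the probes lay on both sides of 0.

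Per1, an immediate-responding period gene that is also induced by cAMP and by glucocorticoids, had 1 probe (A_52_P79889). It read 0.60 in non-septic hearts, -0.18 in LPS hearts and -0.22 in CLP hearts. It was the sole E-box target to lie above 0 without sepsis and below 0 in both sepsis models. In non-septic hearts it was 1.51-fold higher, with 31 of 17814 genes above it. In LPS hearts its distance from 0 was under the pooled probe SD, and in CLP hearts it was 2.20 times that SD. The distance from the non-septic value was -0.77 in LPS hearts and -0.82 in CLP hearts, against combined probe SDs of 0.26 and 0.15.

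Dbp, the D-box activator whose transcript follows BMAL1 activity closely, read 0.69 in non-septic hearts, 0.83 in LPS hearts and 0.17 in CLP hearts (1 probe, A_51_P180492). It was the highest measured member in the LPS and CLP contrasts and the second highest in the non-septic one. It was 1.61-fold higher without sepsis and 1.78-fold higher in LPS hearts, where 86 of 17733 genes lay above it. The distance from Arntl to Dbp, the lowest measured member and a leading target, was 0.98 in non-septic, 1.80 in LPS and 0.56 in CLP hearts.

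Ciart, which encodes the BMAL1 repressor CHRONO and whose window above holds 3 E-boxes, read 0.83 in non-septic hearts at its 1 probe (A_52_P63343). That is 1.78-fold higher with esmolol, and 3 of 17814 genes lay above it. The table holds no value for this probe in the LPS and CLP contrasts, so the E-box targets number 6 in the first contrast and 5 in the others. The sources used here do not say why the cell is blank.

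Nr1d1, which encodes REV-ERB alpha and is itself an E-box target, lay below 0 in all 3 contrasts. Its 3 probes read -0.22, -0.22 and -0.13 in non-septic hearts, -0.30, -0.29 and -0.26 in LPS hearts, and -0.14, -0.13 and -0.04 in CLP hearts. The gene medians were -0.22, -0.29 and -0.13, and none reached 1.5-fold. It was the sole target below 0 in non-septic hearts, while Per1 was also below 0 in LPS and CLP hearts. The SD between its probes, 0.05, 0.02 and 0.06, was below the pooled SD in each contrast. In non-septic hearts Nr1d1 lay within 1 pooled SD of its neighbours Nfil3 and Clock in the order of members.

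In LPS hearts, 3 of the 9 measured members were past 1.5-fold, Dbp and Per3 on the higher side and Arntl on the lower side. The background was 4.32% of 17733 genes past it, 2.06% higher and 2.26% lower. The spread of all genes was wider there than elsewhere (SD 0.28, against 0.14 non-septic and 0.16 CLP), so ratios of one size are less far out in LPS hearts: Per3 had 29 genes above it in the non-septic contrast at 0.60 and 266 above it in the LPS contrast at 0.64. The E-box targets had a median of 0.23 and the activators one of -0.02, a difference of 0.25. That value depended on the summary: it was 0.58 with means over genes, 0.05 with the median over single probes and 0.04 without the member farthest from its set median. Of the 5 measured targets, Dbp, Per3 and Per2 lay above every activator, and Per1 and Nr1d1 lay below 0. Neighbours in the order of members were farther apart than the pooled probe SD at 3 places, between Per3 and Per2, between Per2 and Npas2 by the narrowest of margins (0.2375 against 0.2371), and between Nr1d1 and Arntl.

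In CLP hearts, 0 of the 9 measured members were past 1.5-fold, against 0.952% of 17339 genes, 0.819% higher and 0.133% lower. The members ran from Arntl at -0.39 to Dbp at 0.17. The targets had a median of 0.04 and the activators one of -0.10, a difference of 0.14 (0.07 with the median over single probes), and again Dbp, Per3 and Per2 lay above every activator. Gaps between neighbours exceeded the pooled probe SD at 2 places, below Dbp and above Arntl. If the deposited sign is not turned, Arntl becomes the highest member at 0.39 and Dbp the lowest at -0.17.

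**Figure D2:**
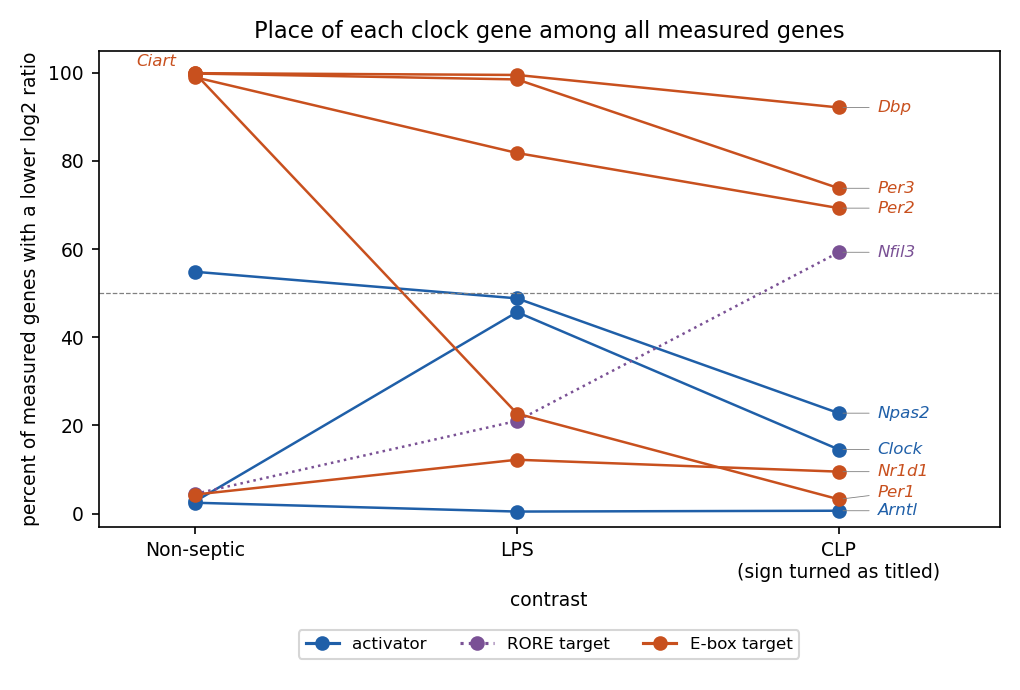
Percent of all measured genes with a lower log2 ratio than each member, by contrast (lines join values of the same gene and imply no order of the contrasts). Dbp and Per3 stay in the upper part and Arntl and Nr1d1 in the lower part in all 3 contrasts, while Per1 lies above 99.8% of genes in the non-septic contrast and above 22.7% and 3.24% in the LPS and CLP contrasts (96.8% in CLP with the deposited sign).

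The direction of the members was then set side by side between contrasts, which share no group of hearts per the labels. Between the non-septic and LPS contrasts 7 of 9 members had the same sign, where 53.5% of 17334 genes did; the exceptions were Npas2, near 0 in both, and Per1. Between LPS and CLP, with the CLP sign turned, 8 of 9 had the same sign, Nfil3 being the exception, where 47.9% of 17089 genes did. Between the non-septic and CLP contrasts 6 of 9 had the same sign, where 46.4% of 17166 genes did. The 20 other measured clock genes, described below, kept their sign less often than the members. Of these 20, 8 had the same sign between non-septic and LPS, 7 between LPS and CLP, and 9 between non-septic and CLP. With the CLP sign as deposited, the sign counts of both comparisons with CLP are exchanged between same and opposite. The members were proposed with these data in view and are coupled in 1 loop, so the counts are a description and were not tested.

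Other clock genes that are not among the 10 were examined as a list of 22, of which 20 were measured. None was past 1.5-fold in any contrast. In non-septic hearts 4 output genes of the clock were among the 5 highest of the list. Hlf and Tef, which encode the D-box activators related to DBP, read 0.54 and 0.47 ± 0.09 (SD between probes, n = 4 probes). Wee1, a cell cycle kinase under clock control, read 0.48, and Usp2, a ubiquitin protease, read 0.40 ± 0.09 (n = 2 probes). The 4 thus lay between 0.40 and 0.54, all above 0 and each beyond the pooled SD of 0.11. Nr1d2, the paralogue of Nr1d1, read 0.44 where Nr1d1 read -0.22.

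In LPS hearts these output genes parted. Usp2 (0.34) and Tef (0.29) lay above 0, on the side of Dbp, and Wee1 (-0.20) and Hlf (-0.37) below it. Of the 4 Tef probes, the one with a clone accession (AK045575) read 0.69 and the other 3 between 0.24 and 0.35. Of the 7 repressor and feedback genes, a group that also holds the Arntl paralogue Arntl2 (-0.15), 6 lay below 0 in LPS hearts. The group ran from Timeless at -0.51 to Nr1d2 at 0.14, where the median of all genes was 0.0001. The cryptochromes, partners of the period proteins, read -0.05 (Cry1) and -0.22 (Cry2). Both, like Arntl2 and Nr1d2, lay within the pooled probe SD of 0.24 from 0. In CLP hearts Bhlhe40, which encodes the E-box repressor DEC1, was the highest of the list at 0.52, while Wee1 was lowest at -0.31; with the deposited sign Bhlhe40 would be the lowest at -0.52 and Wee1 the highest at 0.31. Rora, the RORE activator that opposes REV-ERB, read 0.29 in non-septic, -0.35 in LPS and 0.05 in CLP hearts. The 7 measured genes for clock kinases and ubiquitin ligases stayed between -0.05 and 0.06 in non-septic hearts, within the pooled probe SD.

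**Figure D3:**
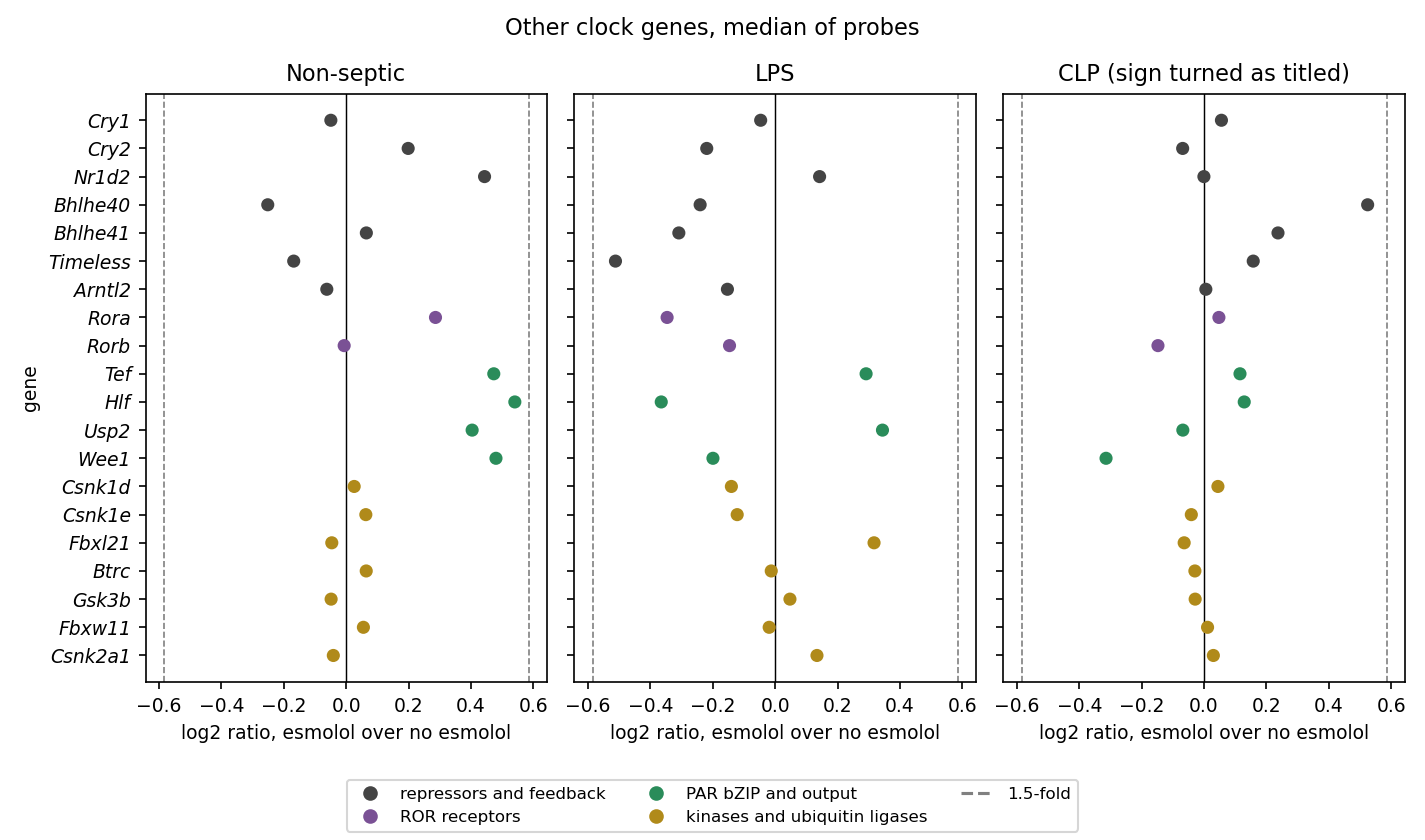
Log2 ratio (median of probes) of the 20 other measured clock genes in the 3 contrasts, coloured by role, with dashed lines at 1.5-fold. No gene passes the lines; Tef, Hlf, Usp2 and Wee1 lie between 0.40 and 0.54 in non-septic hearts and on both sides of 0 in LPS hearts.

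Genes reported to follow the clock in heart, a list of 13 with 12 measured, had a median of 0.22 in non-septic, 0.09 in LPS and -0.11 in CLP hearts, and none was past 1.5-fold. Of the 12, 11 lay above 0 in non-septic hearts and 11 below 0 in CLP hearts, and the medians of all genes were 0.001, 0.0001 and -0.005. Klf15, a regulator of cardiac metabolism, was highest without sepsis (0.47 ± 0.09, SD between probes, n = 2 probes). Pik3r1, a regulatory subunit of phosphoinositide kinase, had 4 probes close together, with medians of 0.44 ± 0.03, 0.53 ± 0.03 and -0.09 ± 0.03 in the 3 contrasts. In CLP hearts the gene medians of 3 of the 12 genes were the recurring value itself, which gives no usable ratio. Without these 3 genes, 8 of 9 lay below 0. Dgat2, among the 3, had other probes off the recurring value, at -0.03 and 0.04.

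Since Per1 also answers to glucocorticoids and cAMP, lists of other genes with these responses were read beside it. Glucocorticoid-responsive genes had a median of 0.22 in non-septic hearts, with 11 of 13 measured above 0 and 1 past 1.5-fold. That gene was Fkbp5, a co-chaperone of the glucocorticoid receptor, at 0.73 ± 0.04 (n = 3 probes). The median was -0.02 in LPS and -0.06 in CLP hearts, where Fkbp5 read 0.46 and -0.26. In LPS hearts Per1, at -0.18 and less than the pooled probe SD from 0, lay on the other side of 0 from Fkbp5. Of the 13 genes, 7 lay below 0 there, as Per1 did, and 6 above. In CLP hearts Per1, at -0.22, lay on the same side as Fkbp5. Genes induced by cAMP had medians of -0.12, -0.35 and -0.06, with 11, 11 and 8 of 13 below 0. Per1, at 0.60 in non-septic hearts, lay on the other side of 0 from these 11 genes there. In LPS and CLP hearts it lay below 0, as most of the list did. Past 1.5-fold was 1 of 13, Atf3 in LPS hearts (-1.29). The part of either response in the Per1 values was not tested.

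Markers of other tissues and cells moved with the contrasts and are given beside the clock values. The 7 atrial markers, Myl7 and Sln among them, had a median of 0.61 in non-septic hearts (range 0.03 to 0.80), of -0.98 in LPS hearts (range -1.23 to -0.09) and of 2.11 in CLP hearts (range 0.60 to 2.69). Past 1.5-fold were 4 of 7 higher, 5 of 7 lower and 7 of 7 higher. Blood markers (median -0.56, 3 of 6 lower by 1.5-fold) and fast skeletal muscle markers (median -0.78, 4 of 8 lower) lay below 0 in LPS hearts. Macrophage markers lay above it there (median 0.75, 3 of 5 higher). The blood markers past 1.5-fold were Ppbp, Alas2 and Pf4, and the haemoglobin genes read between -0.50 and -0.26. Of the 8 fast skeletal muscle markers, 3 had a probe on the recurring value in LPS hearts. Neutrophil markers lay below 0 in CLP hearts (median -0.56, 2 of 4 lower). Adipocyte markers had medians of -0.09, -0.18 and 0.04, with 2 of 7 higher in CLP hearts. The 9 cardiomyocyte markers had medians of 0.01, -0.04 and -0.02, which are the recurring values themselves and give no usable ratio. Of these markers, 4, 7 and 6 had a probe on the recurring value. In LPS hearts 1 of 9, Tnnt2 at 0.62, was higher by 1.5-fold, with probes at -0.04 (the recurring value) and 1.28. The part of these shifts in the clock values was not tested. In bulk tissue, fewer cells of a type and less RNA per cell cannot be told apart.

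**Figure D4:**
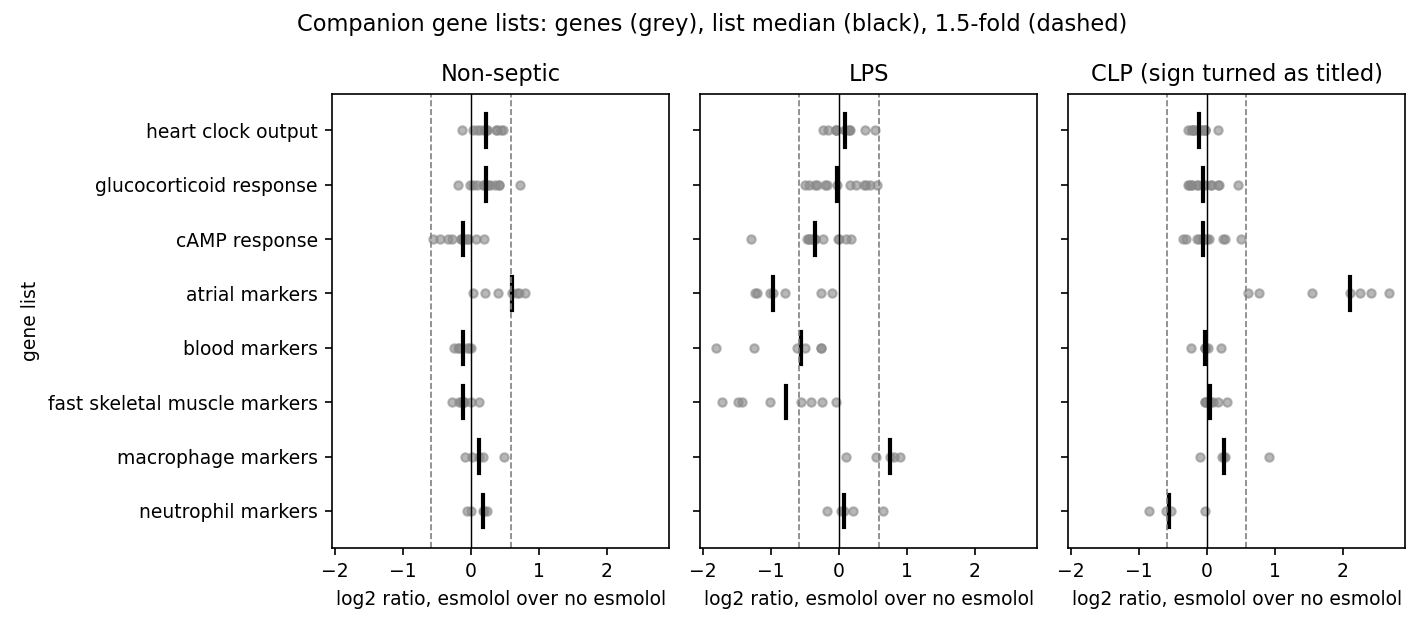
Log2 ratios of the genes of 8 lists read beside the clock genes (grey points) and the median of each list (black bars) in the 3 contrasts, with dashed lines at 1.5-fold. Atrial markers have medians of 0.61, -0.98 and 2.11, and the clock output and glucocorticoid lists have medians of 0.22 in non-septic hearts.

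Last, the genes whose 3 values lay nearest those of Arntl and of Dbp were looked up among 13817 genes with every probe measured in all contrasts, by Euclidean distance on the log2 scale. Nearest to Arntl was the olfactory receptor Olfr1495 (distance 0.16, with -0.22, -0.98 and -0.24 in the 3 contrasts). Gdnf, a neurotrophic factor (0.23), and the death ligand gene Tnfsf10 (0.28) came next. Nearest to Dbp was Rhobtb1 (distance 0.22, with 0.71, 0.61 and 0.18). The chemokine gene Ccl6 (0.29) and the macrophage scavenger receptor gene Cd163 (0.35) came next. A likeness over 3 merged values is a weak description, and an olfactory receptor probe came as near to Arntl as any gene.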

How the data were processed

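Heart RNA was labelled in 2 colours and hybridized on Agilent-type oligonucleotide arrays. The authors deposited 1 merged log ratio, read here as log2 by assumption, per probe and contrast, made from 4 replicates with dye swaps per the labels' descriptions. The sources used here do not give scanner, background correction, normalization, filtering or log base, and single-array intensities were not used here, so depth over background is unknown. Of 41174 probes, 32664 named 1 gene, 45 several (left out) and 8465 none; 32524 matched RefSeq by gene ID. Probes were collapsed by their median with pandas 2.3.3 (Python 3.11.15). The CLP sign was turned as titled. Genes were counted past 1.5-fold without a test. The pooled SD between probes served as the yardstick, and it does not measure the error between animals or hybridizations. Scripts were tested on simulated data. The members and lists were chosen with earlier results of these data known. The rule for named genes took all members and the 3 genes nearest Arntl and Dbp, and allowed the highest and lowest of each list and list genes past 1.5-fold, of which a part is named; other list genes named were chosen after their values were seen. Alternatives were the fold threshold, log base, probe summary, recurring-value probes, centring, set membership and CLP sign.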

Additional observations from a re-analysis of the deposited data

Results flagged for a closer look

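Per1 was past 1.5-fold in non-septic hearts, with a log2 ratio of 0.60, and lay on the other side of 0 by more than the pooled probe SD in CLP hearts, at -0.22. The difference between the contrasts was not tested, since each is 1 merged value, and its direction rests on the order of the CLP title: with the deposited sign Per1 would read 0.22 there.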

How the results depend on the processing

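At 2-fold, 0 members were past the threshold in any contrast. The shares of all genes past it were 0.0954% in non-septic, 0.603% in LPS and 0.254% in CLP hearts. With shares this small, a count of 0 among so few members says little. At the lowest threshold tried, 5 members were past it in non-septic, 3 in LPS and 1 in CLP hearts. The shares of all genes were then 3.0%, 21.2% and 3.75%. Read as log10, the values gave 9, 7 and 2 members past 1.5-fold, beside 13.2%, 46.7% and 13.3% of all genes. Natural logs, probe means, single probes, centring and leaving out recurring-value probes gave 4, 3 and 0 members, as in the report. With natural logs the share of all genes past 1.5-fold was 1.58%, 13.0% and 2.29%. Every member past 1.5-fold had 1 probe, and no member probe carried the recurring value. Probe means, single probes and leaving out recurring-value probes therefore could not change the values of those members. The difference between E-box targets and activators became 0.66 (means over genes) and 0.75 (single probes) instead of 0.87 in non-septic hearts, 0.58 (means over genes), 0.05 (single probes) and 0.04 (without the member farthest from its set median) instead of 0.25 in LPS hearts, and 0.07 (single probes) and -0.14 (deposited sign) instead of 0.14 in CLP hearts. Of 89 member values under alternatives other than the CLP sign, 82 moved by less than the pooled probe SD and 7 by more, all single probes. No member past 1.5-fold changed sign, but with 1 probe each these members had no second probe that could differ. No paired analysis was possible because each contrast is 1 merged column with no replicate values, and no replicate could be left out.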
